A study of Mus musculus with 12 samples.

Results

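The genes described here are 38 genes that absorptive enterocytes of the small intestine use to digest food and take up its products, grouped by role into lipid uptake and export (15 genes), peptides and amino acids (12), the brush border and its disaccharidases (6), and nucleosides, minerals and vitamin B12 (5). They were chosen by gene symbol, and a gene with several transcript clusters, the probe groups that the array reads as one transcript, was represented by its cluster with the highest mean level. Of the 38, 37 had a cluster of their own among 18820 genes measured. *Slc3a1*, the partner of the cystine transporter *Slc7a9*, had only clusters shared with *Prepl* and was given no value.

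The study deleted FIRE, an enhancer in an intron of *Csf1r*, the receptor that macrophages need for growth and survival, and asked what this does to macrophages and their tissues. RNA was taken at 6 weeks of age from saline-perfused mice with the strain label C57BL/6J/CBA, from the hippocampus and from a piece of gut labelled as both Peyer's patch and ileum, and read on 12 Affymetrix arrays. The groups are FIRE -/- ileum (arrays F09 and H09 from females, G09 from a male), FIRE +/+ ileum (C09 and D09 from males, E09 from a female), FIRE -/- hippocampus (A09, B09 and H07) and FIRE +/+ hippocampus (E07, F07 and G07), with 3 arrays each. The deletion is germline, so it is carried by every cell of the FIRE -/- mice, and it descends from 1 founder. Where along the ileum the piece was cut and how much of it was patch are not given in the sources used here, nor is it stated whether the same mice gave both tissues, so p-values measure the spread between these arrays.

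Enterocytes line the villi and carry a brush border of microvilli on their luminal side. Enzymes fixed in that membrane finish the digestion of peptides and disaccharides, transporters beside them carry the products into the cell, and absorbed fat is rebuilt into triglyceride and exported to the lymph in chylomicrons. The small intestine is zoned along its length: lactase, the fatty acid carrier *Fabp1* and several apolipoproteins are known for high levels in the proximal part, where the transcription factor *Gata4* is made, while the bile acid transporter *Slc10a2* and the uptake of vitamin B12 belong to the distal ileum.

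Before the members, 4 facts of the series bear on what follows. *Csf1r* read 3.58, 3.69 and 3.65 on FIRE -/- hippocampus arrays, against 8.34, 8.31 and 8.15 on FIRE +/+ ones (log2 fold change -4.63 ± 0.09 SE, limma adjusted p = 8.77e-07), and 6.44, 7.53 and 6.86 in FIRE -/- ileum, against 7.41, 8.17 and 7.39 in FIRE +/+ ileum, where the groups overlap (log2 fold change -0.71 ± 0.32 SE, limma adjusted p = 0.999). Arrays F09 and D09 stand apart in the ileum: *Ms4a1*, the B cell marker CD20, read 7.68 on F09, 2.32 on G09 and 2.14 on H09, against 2.68 on C09, 7.66 on D09 and 2.50 on E09. The mean of 10 B cell genes was 3.39 to 3.85 on the ileum arrays other than F09 and D09, against 2.82 to 3.16 on the hippocampus arrays, so on those 4 ileum arrays the B cells that define a patch were barely seen. Among the FIRE -/- hippocampus arrays, B09 carries a female label, but its levels were those of a male array, with 2.44 for *Xist* and 6.18 for the Y-linked gene *Eif2s3y*. In whole pieces of tissue, fewer enterocytes and less RNA of a gene per enterocyte cannot be told apart.

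The promoters of 3 members are shown because the levels of these genes varied together over the ileum arrays, a choice made after the values were seen. Each is the stretch of 150 bases that ends just before the RefSeq start on GRCm38.p6, read 5′ to 3′ on the gene's own strand, and capitals mark matches on either strand to AGATAA (the core bound by GATA factors), TTTATG (CDX factors), GTTAAT (one side of an HNF1 site) or CAAAGTCCA (HNF4).
*Lct*, chr1:128328319-128328468, minus strand: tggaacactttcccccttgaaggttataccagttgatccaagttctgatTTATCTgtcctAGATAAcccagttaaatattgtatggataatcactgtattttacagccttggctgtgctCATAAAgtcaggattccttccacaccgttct
*Fabp1*, chr6:71199729-71199878, plus strand: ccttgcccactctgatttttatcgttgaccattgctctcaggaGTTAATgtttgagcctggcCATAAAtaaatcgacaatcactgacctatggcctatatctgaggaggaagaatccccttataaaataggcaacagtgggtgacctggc
*Apoa4*, chr9:46240694-46240843, plus strand: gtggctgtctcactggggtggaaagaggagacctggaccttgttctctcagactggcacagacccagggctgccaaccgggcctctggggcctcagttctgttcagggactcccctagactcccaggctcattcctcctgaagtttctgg
The *Lct* stretch holds AGATAA on each strand and TTTATG on the other strand, the *Fabp1* stretch holds TTTATG on the other strand and GTTAAT on its own, no match overlaps another in either, and the *Apoa4* stretch holds none of the 4. *Ace* had the same order over the ileum arrays as *Lct* and *Apoa4*, which *Fabp1* did not share. It is not shown, and its stretches hold none of the 4. Of the 38 members, 32 had a promoter in the RefSeq table, with 35 start sites. In the 250 bases before the start, AGATAA was found at 6 of these 35 sites (17.1%), against 9.99% of all 32851 promoters in the table. TTTATG was found at 7 (20.0%), against 10.8%, and GTTAAT at 5 (14.3%), against 6.43%. CAAAGTCCA was found at only 2 (5.71%), those of *Alpi* and *Slc3a1*, against 0.384%. *Abcg5* and *Abcg8* start close together on opposite strands, and in the 150 bases before each start the AGATAA matches of *Abcg5* are counted for *Abcg8* as well. These are letter matches in short windows and are given as a description only.

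The label of the tissue was checked first, by comparing ileum with hippocampus. In FIRE -/- mice 35 of the 37 members were higher in the ileum than in the hippocampus by limma, 1 was lower and 1 did not pass, where 31.8% of all clusters were higher and 29.5% lower. In FIRE +/+ mice 34 were higher, 1 was lower and 2 did not pass, where 31.1% of all clusters were higher and 28.7% lower. The median difference, ileum minus hippocampus, was 7.08 on the log2 scale in FIRE -/- mice and 6.83 in FIRE +/+ mice, and 0.07 and 0.03 over all clusters. Every ileum array lay above every hippocampus array for 32 of the 37 members, and for 28.4% of all clusters. Without B09 the count in FIRE -/- mice was again 35 higher and 1 lower.

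The largest difference was that of *Fabp2*, the intestinal fatty acid binding protein, at 9.21 ± 0.30 SE in FIRE -/- mice and 9.09 ± 0.30 in FIRE +/+ mice. The member lower in the ileum was *Scarb1*, a receptor for high-density lipoprotein, at -0.76 ± 0.23 and -0.85 ± 0.23 (limma adjusted p = 0.0132 in FIRE -/- and 0.00747 in FIRE +/+ mice). *Tmprss15*, the duodenal protease enteropeptidase that activates trypsinogen, read 2.04 to 2.34 on all ileum arrays and 2.01 to 2.22 on all hippocampus arrays, and did not pass in either genotype. *Lct*, the lactase of the brush border, read 7.40 to 7.92 on the hippocampus arrays and was higher in the ileum of FIRE -/- mice (3.33 ± 0.84 SE, limma adjusted p = 0.00416), while in FIRE +/+ mice it did not pass (0.99 ± 0.84 SE, adjusted p = 0.342). That value in FIRE +/+ mice rested on single arrays: it was -0.14 without C09 and 2.08 without E09 (adjusted p = 0.0156).

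**Figure D1:**
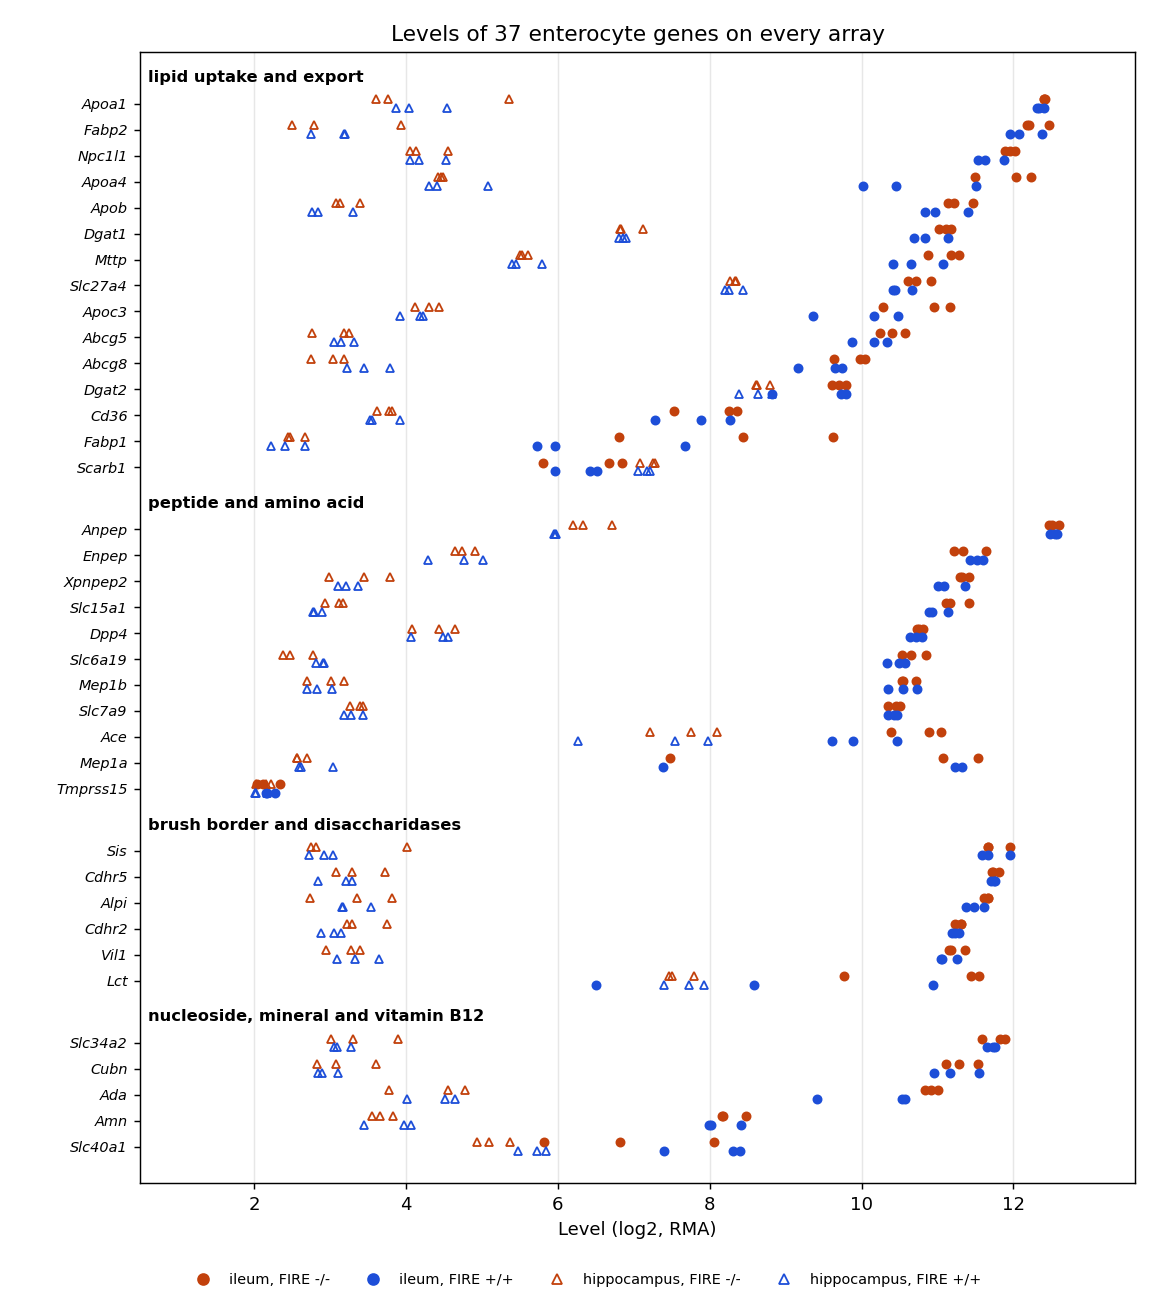
Levels of the 37 measured genes on every array, with 1 row per gene and the log2 RMA level on the horizontal axis, filled circles for ileum and open triangles for hippocampus, FIRE -/- in orange above FIRE +/+ in blue. Ileum points lie to the right of all hippocampus points in 32 of 37 rows; levels of different genes are read by different probes and are not comparable with each other.

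The main question was whether the ileum of FIRE -/- mice differed from that of FIRE +/+ mice in these genes. No member passed in either direction, and neither did any of the 21218 clusters tested (0% called, limma, smallest adjusted p 0.999). Without adjustment 5 of the 37 members had a p under 0.05, all of them higher in FIRE -/- ileum (*Apoa4*, *Ace*, *Ada*, *Apoc3* and *Fabp1*), or 13.5%, where 720 of all clusters, or 3.39%, had one. An unmoderated test of each cluster also called none, and put 774 of all clusters and 0 members under an unadjusted 0.05. With 1 array left out, the number of members under 0.05 was 11 without C09 (5.09% of all clusters), 6 without H09, 5 of them higher (3.78%), 2 without D09 (3.81%), E09 (2.05%) or F09 (3.42%), and 1 without G09 (3.04%). The values are therefore given as measured, with no change called.

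On balance the members leaned to higher values in FIRE -/- ileum: 33 of 37 (89.2%) had a log2 fold change above 0, against 47.1% of all clusters, with a median of 0.16, against -0.01. The members were read on the same arrays and several varied together, so they do not count as independent observations. All 15 lipid genes had a value above 0 (median 0.26), as had 8 of the 11 peptide and amino acid genes (median 0.05), all 6 brush border genes (median 0.08) and 4 of the 5 genes for nucleosides, minerals and vitamin B12 (median 0.09). With 1 array left out the count was 29 to 33, and without both D09 and F09, the 2 arrays rich in B cell RNA, it was 26 (median 0.06). The arrays of the 2 genotypes did not overlap in 2 of the 37 members (5.41%), *Ada* and *Npc1l1*, both with FIRE -/- above FIRE +/+, against 8.04% of all clusters (3.52% above and 4.52% below).

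**Figure D2:**
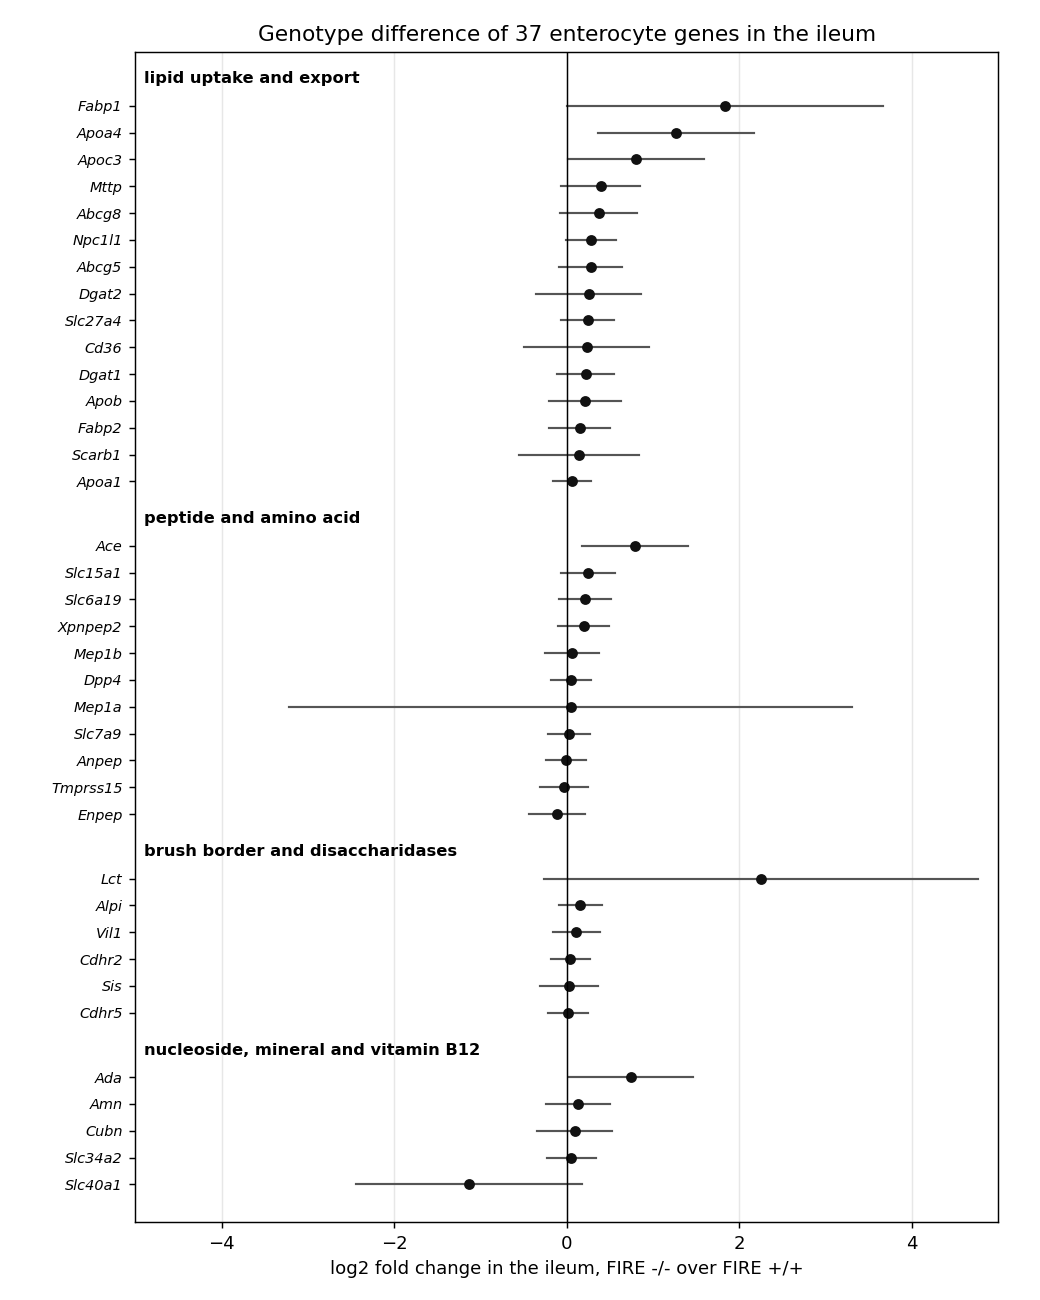
Log2 fold change of each gene in the ileum, FIRE -/- over FIRE +/+, as points with 95% confidence intervals from limma (bars, n = 3 arrays per genotype), grouped by role. All 15 lipid genes lie to the right of 0, *Lct*, *Fabp1* and *Mep1a* have the widest intervals, and no gene passed after adjustment.

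Among the lipid genes, *Apoa4*, an apolipoprotein made by enterocytes during fat absorption, had the smallest unadjusted p. It read 12.04, 12.23 and 11.49 in FIRE -/- ileum (F09, G09, H09), against 11.50, 10.45 and 10.02 in FIRE +/+ ileum (C09, D09, E09). The groups overlap narrowly, with C09 just above H09, and the log2 fold change was 1.26 ± 0.38 SE. A second *Apoa4* cluster at a lower level gave 1.45 ± 0.45 SE.

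*Fabp1*, which carries fatty acids inside enterocytes, spread more widely. It read 9.62, 8.44 and 6.81 in FIRE -/- ileum, against 7.67, 5.72 and 5.97 in FIRE +/+ ileum, with a log2 fold change of 1.84 ± 0.78 SE. Here C09 lay above H09, so the groups overlap, and without F09 the value was 1.17. *Apoc3*, an apolipoprotein of triglyceride-rich particles, read 10.95, 11.16 and 10.28 in FIRE -/- ileum, against 10.48, 10.16 and 9.36 in FIRE +/+ ileum (0.80 ± 0.33 SE, or 0.48 without E09), again with C09 above H09.

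*Npc1l1*, the cholesterol importer blocked by ezetimibe, read 11.96, 12.02 and 11.89 in FIRE -/- ileum, against 11.88, 11.62 and 11.53 in FIRE +/+ ileum. The lowest FIRE -/- array lay just above the highest FIRE +/+ one, and the log2 fold change was 0.28 ± 0.12 SE. *Abcg5* and *Abcg8*, the paired pump that returns sterols to the lumen, had values of 0.28 ± 0.15 and 0.37 ± 0.19, both with overlapping arrays.

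For the assembly of the chylomicron, *Apob*, the structural protein of the particle, had a log2 fold change of 0.21 ± 0.18 SE, and *Mttp*, which loads lipid onto it, 0.39 ± 0.19. *Apoa1*, the main apolipoprotein of high-density lipoprotein, read 12.41, 12.40 and 12.42 in FIRE -/- ileum, against 12.41, 12.31 and 12.34 in FIRE +/+ ileum, and *Fabp2* read 12.46, 12.18 and 12.21, against 12.38, 11.95 and 12.07. Both overlap between genotypes, and the confidence intervals of -0.16 to 0.28 for *Apoa1* and -0.20 to 0.50 for *Fabp2* bound what these arrays could show. The remaining lipid genes, *Dgat1* and *Dgat2*, which complete triglyceride, *Cd36* and *Slc27a4*, which take up fatty acids, and *Scarb1*, had values of 0.14 to 0.26.

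Among the peptide and amino acid genes, *Ace*, a brush border peptidase that also makes angiotensin II, read 10.89, 11.05 and 10.39 in FIRE -/- ileum, against 10.47, 9.88 and 9.61 in FIRE +/+ ileum. C09 again lay above H09, and the log2 fold change was 0.79 ± 0.26 SE. The transporters gave values of 0.25 ± 0.13 for *Slc15a1*, the carrier of dipeptides and tripeptides, 0.21 ± 0.13 for *Slc6a19*, the main carrier of neutral amino acids, and 0.03 ± 0.10 for *Slc7a9*.

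The other brush border peptidases gave smaller values. *Anpep*, aminopeptidase N, read 12.60, 12.46 and 12.51 in FIRE -/- ileum, against 12.55, 12.48 and 12.57 in FIRE +/+ ileum, and *Enpep*, the glutamyl aminopeptidase, read 11.64, 11.22 and 11.34, against 11.60, 11.43 and 11.52. Their confidence intervals were -0.24 to 0.23 and -0.44 to 0.21. *Dpp4*, which cuts after proline, and *Xpnpep2*, which cuts before it, had values of 0.05 ± 0.10 and 0.20 ± 0.13.

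*Mep1a*, the alpha subunit of the metalloprotease meprin, had a pattern of its own. It read 11.54, 11.07 and 7.48 in FIRE -/- ileum, against 7.38, 11.23 and 11.33 in FIRE +/+ ileum: low on H09 and C09, 1 array of each genotype, and high on the other 4, so that the genotype value was 0.05 ± 1.38 SE. The gap between the lowest of the 4 and the higher of the pair was 3.59, the second largest of all clusters after *H2-Q2*, a class I histocompatibility gene, at 3.84. The genes that followed included the immunoglobulin genes *Ighg3* at 1.60 and *Ighm* at 1.37, and the class II gene *H2-Ab1* at 0.90. *Mep1a*, *H2-Q2* and *H2-Ab1* are annotated to chromosome 17. The rest of the 10 clusters with the largest gaps are annotated to chromosomes 6, 12 and 16, with *Ighg3* and *Ighm* on 12. *Mep1b*, the beta subunit, read 10.71, 10.55 and 10.53, against 10.72, 10.34 and 10.54, without that gap. The order of the arrays was noticed after the values were seen, and its cause was not tested.

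In the brush border class *Lct* had the largest fold change of all members and one of the largest errors. It read 11.45, 11.55 and 9.77 in FIRE -/- ileum, against 10.94, 8.58 and 6.50 in FIRE +/+ ileum (2.25 ± 1.06 SE). C09 lay above H09, and the value ranged from 1.16 without E09 to 3.38 without C09. On E09 the level of 6.50 lay below every hippocampus array, which read 7.40 to 7.92. The other 5 members of the class overlapped between genotypes, with values of 0.01 to 0.16.

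Among them, *Sis*, sucrase-isomaltase, read 11.95, 11.67 and 11.66 in FIRE -/- ileum, against 11.95, 11.67 and 11.58 in FIRE +/+ ileum. *Alpi*, intestinal alkaline phosphatase, read 11.67, 11.67 and 11.61, against 11.61, 11.48 and 11.38, and *Cdhr5*, which with *Cdhr2* links the tips of neighbouring microvilli, read 11.71, 11.73 and 11.81, against 11.71, 11.75 and 11.76. The genotypes overlap in all 3 genes. *Vil1*, the actin-bundling protein villin of the microvillus core, had a value of 0.11 ± 0.12 SE and *Cdhr2* one of 0.04 ± 0.10.

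In the last class *Ada*, adenosine deaminase, read 10.91, 10.83 and 11.00 in FIRE -/- ileum, against 10.54, 9.41 and 10.57 in FIRE +/+ ileum. The genotypes do not overlap, D09 is the low array, and the log2 fold change was 0.74 ± 0.30 SE, or 0.36 without D09. *Slc40a1*, the iron exporter ferroportin, which macrophages also carry, was the member with the lowest value: 5.81, 6.82 and 8.05 in FIRE -/- ileum, against 7.39, 8.31 and 8.40 in FIRE +/+ ileum (-1.14 ± 0.55 SE), with H09 inside the FIRE +/+ range. The value was -0.59 without F09 and -1.72 without H09.

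The genes for vitamin B12 and phosphate gave values of 0.05 to 0.13. *Cubn*, cubilin, the receptor for intrinsic factor with its vitamin B12, read 11.54, 11.12 and 11.28 in FIRE -/- ileum, against 11.55, 11.16 and 10.95 in FIRE +/+ ileum, and *Amn*, the amnionless protein that anchors it, read 8.48, 8.16 and 8.18, against 8.42, 7.99 and 8.02. *Slc34a2*, the apical phosphate transporter, read 11.58, 11.82 and 11.89, against 11.73, 11.65 and 11.75. All 3 overlap between genotypes, and the widest of their confidence intervals was that of *Cubn*, -0.35 to 0.53.

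The members differed in how far they ranged over the 6 ileum arrays. The range over the arrays was above 1 on the log2 scale in 10 of 37 members (27%), against 9.25% of all clusters: 5.05 for *Lct*, 4.15 for *Mep1a*, 3.90 for *Fabp1*, 2.59 for *Slc40a1*, 2.22 for *Apoa4*, 1.80 for *Apoc3*, 1.59 for *Ada*, 1.44 for *Ace*, 1.08 for *Cd36* and 1.05 for *Scarb1*. The median range over members was 0.51, against 0.48 over all clusters. Level bears on this measure: of the 213 clusters in the brightest 1% none ranged over more than 1 (median range 0.18), and none of the 9 members among them did (median 0.31), while 10 of the 28 members below that level did (median 0.66). Whether small ranges of the bright members reflect the upper end of the array's scale was not tested.

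Several of these shared an order of arrays. *Lct*, *Apoa4*, *Apoc3* and *Ace* ran G09, F09, C09, H09, D09, E09 from high to low, 4 of 37 members, where 62 of all 21218 clusters (0.292%) did. In 10 of 37 members (27%) F09, G09 and C09 all lay above H09, D09 and E09, where 6.33% of all clusters did so. The order was chosen after the values were seen. It separates the genotypes except that C09, a FIRE +/+ array, lay above H09, a FIRE -/- array, so the genotypes overlap. C09 and H09 read 11.50 and 11.49 for *Apoa4*, 10.47 and 10.39 for *Ace*, 10.48 and 10.28 for *Apoc3*, and 10.94 and 9.77 for *Lct*.

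Genes known for their place along the small intestine were read beside them. *Gata4* had the same order as *Lct*: 8.63, 8.69 and 7.17 in FIRE -/- ileum, against 8.09, 6.34 and 4.56 in FIRE +/+ ileum. *Slc10a2* had exactly the reverse order, at 8.18, 5.58 and 8.76, against 8.24, 9.16 and 9.79. *Slc40a1* ran near the reverse, with E09 and D09 highest and F09 lowest. *Cubn* and *Amn*, the genes of vitamin B12 uptake, did not follow *Slc10a2*. Both read highest on F09 and C09, and lowest on E09 for *Cubn* and on D09 for *Amn*.

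Of the 9 genes listed as more abundant in the proximal small intestine, all had a log2 fold change above 0 (median 0.22), and 2, *Gip* (1.68 ± 0.51 SE) and *Slc2a2* (1.48 ± 0.39), did not overlap between genotypes, where 8.04% of all clusters did not. Against the hippocampus, 5 of the 9 were higher in the ileum in each genotype, 2 were lower and 2 did not pass. *Gata4*, *Cybrd1* and *Slc2a2* of this list are also counted in other lists below. Of the 8 listed as more abundant in the distal part, 2 were above 0 (median -0.16), but one of these was *Fgf15*, an ileal hormone induced by bile acids, at 1.30 ± 0.37, the 1 gene of the 8 whose genotypes did not overlap. *Gata4* thus followed the order of these members over the arrays and *Slc10a2* its reverse, but each was the only gene of its list to do so (1 of 9 and 1 of 8). The mean of the 9 proximal genes was 5.80 on C09, below 6.09 on H09 and 5.86 on D09. The part of position in the members' values was not tested. *Gata4* shares the array order of *Lct*, *Apoa4*, *Apoc3* and *Ace*, so as a covariate it was bound to take up much of their values. Such a fit cannot tell position from genotype. With the *Gata4* level as a covariate, an alternative chosen after the data were seen, 26 of 37 members were above 0 (median 0.04). The log2 fold change was then -0.03 for *Lct*, 0.49 for *Apoa4*, 0.61 for *Fabp1*, 0.29 for *Ace*, 0.15 for *Apoc3*, 0.11 for *Npc1l1* and -0.31 for *Slc40a1*. It rose for other members, among them *Cd36* (0.46, and 0.23 without the covariate), *Scarb1* (0.47, and 0.14) and *Mep1a* (0.80, and 0.05).

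**Figure D3:**
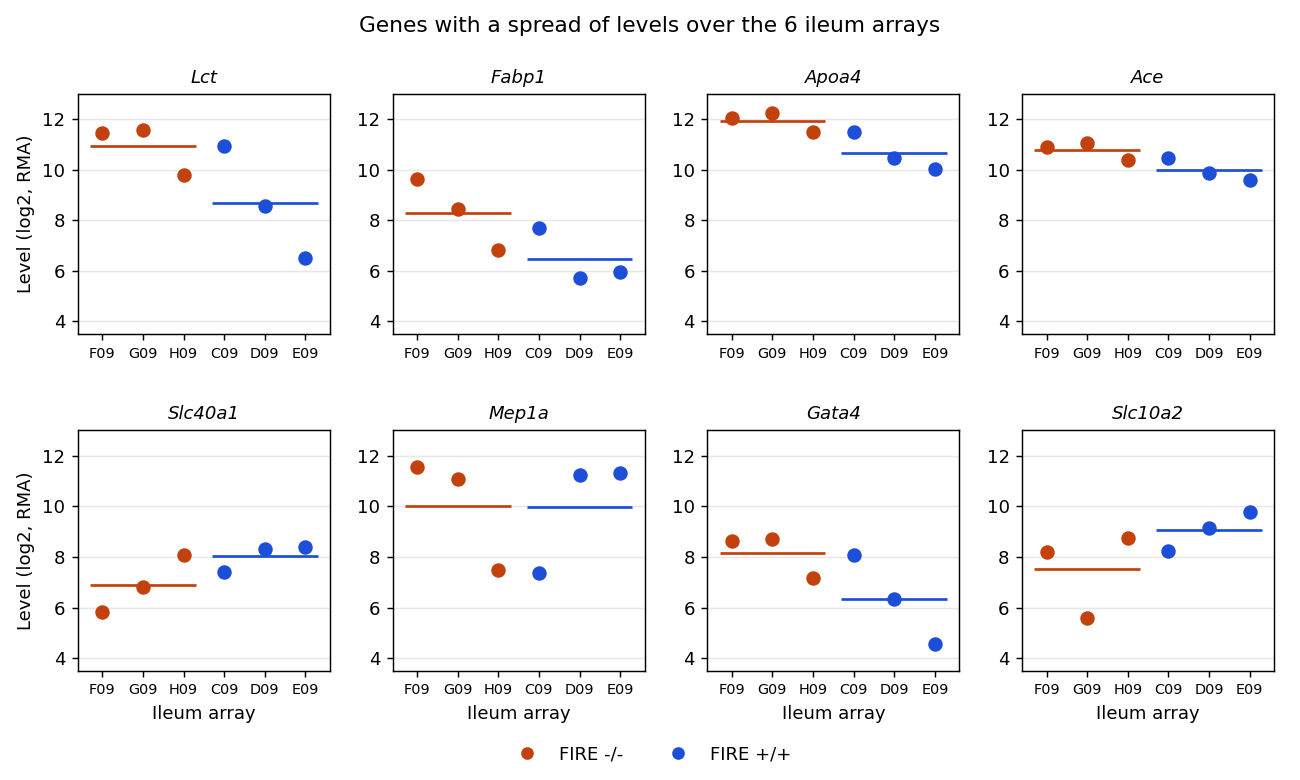
Log2 RMA levels of 8 genes on the 6 ileum arrays, FIRE -/- in orange to the left of FIRE +/+ in blue, with points for arrays and lines for the mean of each genotype (n = 3). *Lct*, *Apoa4*, *Ace* and *Gata4* descend in 1 order, G09, F09, C09, H09, D09, E09, *Slc10a2* has the reverse order, and *Mep1a* is low only on H09 and C09.

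The link to lymphoid content was read from F09 and D09, 1 array of each genotype, where all 10 measured B cell genes were higher than on the other arrays of their genotype. The summed B cell level, as a mean over the 10 genes, was 7.53, 3.85 and 3.51 on F09, G09 and H09, against 3.39, 7.43 and 3.53 on C09, D09 and E09. Over the same arrays the mean of 9 general epithelial genes stayed between 10.96 and 11.08.

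The members did not shift in the same direction on these 2 arrays: most were higher on F09 and most were lower on D09. Relative to the other arrays of the same genotype, they had a median difference of 0.12 on F09 and of -0.10 on D09, where all clusters had -0.03 and -0.01. On F09, 10 of 37 members were below the mean of the other FIRE -/- arrays, where 54.6% of all clusters were, and on D09, 29 of 37 were below the mean of the other FIRE +/+ arrays, where 51.4% were. Both held for 5 members (13.5%) and for 24.9% of all clusters. Both F09 and D09 lay below all 4 other ileum arrays in 2 members (5.41%), *Cd36* and *Slc34a2*, where 6.97% of all clusters did so, and above them in none, where 6.68% did.

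*Cd36* read 7.52 on F09 and 7.28 on D09, against 7.89 to 8.36 on the other 4 arrays. *Slc34a2* read 11.58 and 11.65, against 11.73 to 11.89. With the *Ms4a1* level as a covariate, 33 of 37 members were above 0 in the genotype comparison, as without it, and none passed. *Ms4a1* was high on F09 and D09, an array of each genotype, so this covariate could move the genotype values only little. Without D09 and F09 together, 26 of 37 members were above 0.

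**Figure D4:**
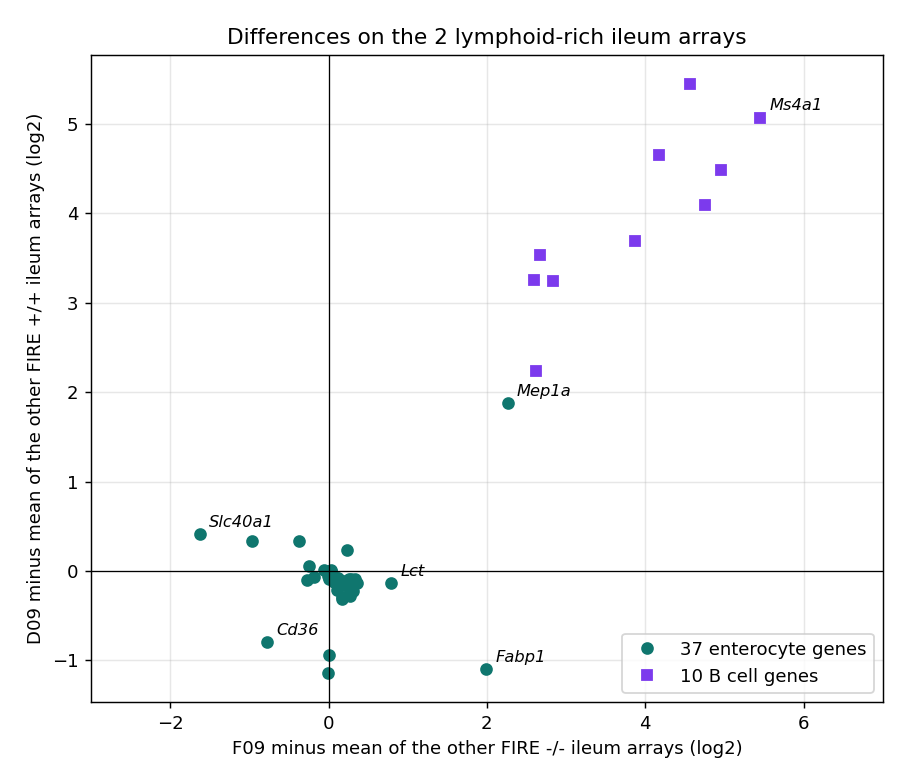
Each point is a gene, with its log2 level on F09 minus the mean of the other FIRE -/- ileum arrays on the horizontal axis and on D09 minus the mean of the other FIRE +/+ ileum arrays on the vertical axis, circles for the 37 enterocyte genes and squares for 10 B cell genes. All B cell genes lie above 0 on both axes, while the enterocyte genes have medians of 0.12 and -0.10, with *Mep1a* alone far above 0 on both.

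Other genes of the same pathways were counted from wider lists. Of 18 other lipid absorption genes 16 had an ileum log2 fold change above 0 (median 0.16), led by *Apoc2*, an activator of lipoprotein lipase (1.23 ± 0.46 SE), and *Abca1*, a cholesterol exporter (0.75 ± 0.35). Of 15 other peptide and amino acid genes 10 were above 0 (median 0.05), with the largest values at *Slc6a14* (-2.20 ± 1.01), an amino acid transporter that read above 5 only on D09 and E09, and *Slc7a8* (0.98 ± 0.43). Of 18 other brush border genes 15 were above 0 (median 0.09), with *Slc9a3*, the sodium-proton exchanger, at 1.34 ± 0.48 and *Tmigd1* at -0.68 ± 0.28. Of 17 other vitamin, mineral and sugar genes 11 were above 0 (median 0.15), led by the vitamin C transporter *Slc23a1* (2.55 ± 1.0) and the glucose transporter *Slc2a2*. None of these genes passed after adjustment.

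None of the enterocyte transcription factors was called, and 9 of 15 were above 0 (median 0.06), with the largest values at *Gata4* (1.83 ± 0.86 SE) and *Creb3l3* (0.97 ± 0.34). Lists for other cells of the piece, and for cells that should be absent, were read beside these in the ileum, and none of their genes was called. General epithelial genes had 2 of 9 values above 0 (median -0.01), with the largest at *Krt18* (-0.22) and *Cldn7* (0.18), and genes of other epithelial types 4 of 8 values above 0 (median 0.01), with the largest at *Lgr5* (-0.44) and *Dclk1* (-0.33). Smooth muscle genes had 1 of 7 values above 0 (median -0.11), with the largest at *Cnn1* (-0.21) and *Tagln* (-0.15). Macrophage genes had 2 of 8 values above 0 (median -0.11), with the largest at *Csf1r* (-0.71) and *Cx3cr1* (-0.38), and B cell genes 8 of 10 values above 0 (median 0.24), with the largest at *Bank1* (0.52) and *Cd79a* (0.45). Genes of hippocampal neurons had 4 of 5 values above 0 (median 0.09), with the largest at *Camk2a* (0.23) and *Neurod6* (0.18), and blood genes 2 of 2 (median 0.15). Among these lists for other or absent cells, only that of other epithelial types had genes with an unadjusted limma p under 0.05. They were 2 of 8 (25%), both lower in FIRE -/- ileum, where 3.39% of all clusters had one.

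In the hippocampus, which holds no enterocytes, 95 of 21218 clusters were called by limma (0.448%), all lower in FIRE -/- mice, and no member was among them. Of the 37 members 26 had a log2 fold change above 0 (median 0.07, and 0.01 over all clusters), and 6 had an unadjusted p under 0.05 (4.73% of all clusters), 3 in each direction. Those 6 were also the members whose genotypes did not overlap, where 9.66% of all clusters did not. An unmoderated test called no member either, with 1 cluster higher and 24 lower. All FIRE +/+ arrays of this tissue carry array codes ending in 07, while A09 and B09 of the FIRE -/- arrays end in 09, and no source used here says what the code stands for. With the code as a block, so that only H07 is set against FIRE +/+ arrays, the median was 0.16. The count above 0 was 17 and the median -0.0019 without H07, and 8 of the 13 members that passed a filter on dim clusters.

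The smallest p was that of *Slc40a1*, at 5.36, 5.09 and 4.93 in FIRE -/- hippocampus, against 5.85, 5.48 and 5.72 in FIRE +/+ hippocampus (-0.56 ± 0.14 SE, limma adjusted p = 0.448). Its values do not overlap. The next was *Anpep*, at 6.33, 6.20 and 6.71, against 5.95, 5.95 and 5.98 (0.45 ± 0.13, adjusted p = 0.657). The other 4 were *Abcg8* (-0.50), *Slc6a19* (-0.34), *Slc15a1* (0.26) and *Cdhr2* (0.39), all of which read under 4 on every hippocampus array. With the array code as a block, *Anpep* was at 0.75, *Cdhr2* at 0.72, *Abcg8* at -0.30 and *Slc6a19* at -0.11, and without H07 *Cdhr2* was at 0.23. Without B09, the array whose sex label its values go against, *Slc40a1* was at -0.54 and again no member was called. Of the wider lists, 7 of 8 macrophage genes were called lower (median -2.94), and 1 gene of 17 in the vitamin, mineral and sugar list, the fructose transporter *Slc2a5*, at 3.69, 3.77 and 3.87 in FIRE -/- hippocampus, against 6.51, 6.20 and 6.21 in FIRE +/+ hippocampus (-2.53 ± 0.11, adjusted p = 3.44e-05). *Slc2a5* was named after its values were seen.

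The genotype effects of the 2 tissues were compared directly, ileum minus hippocampus, in a fit of all 12 arrays. No member passed, while 19 of 21218 clusters (0.0895%) did (12 without B09 or E07 and 41 without D09), and 4 members had an unadjusted p under 0.05, where 4.21% of all clusters did: *Abcg8* (0.87 ± 0.27 SE), *Slc6a19* (0.55 ± 0.17), *Apoa4* (1.40 ± 0.47) and *Anpep* (-0.46 ± 0.17). For *Lct* the difference of effects was 2.34 ± 1.19 SE and for *Fabp1* 1.74 ± 0.87, and both missed it.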

How the data were processed

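The deposited table holds log2 values that the authors made from 12 Affymetrix Mouse Gene ST arrays by RMA (version not given in the sources used here). Values ran from 0.50 to 12.99 and array medians from 4.29 to 4.46. For arrays, their number per group limits the precision.

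Gene symbols came from the platform annotation. The 21218 clusters with 1 symbol were tested, and 1881 with several and 12457 with none were left out of the main tests. Each tissue was fitted alone with limma 3.58.1 in R 4.3.3, FIRE -/- minus FIRE +/+, with Benjamini-Hochberg adjustment over all clusters and a threshold of 0.05. Tissue differences came from a fit of 12 arrays. With 3 arrays against 3, an exact two-sided permutation test cannot go below p = 0.1. The fits were tested on simulated data. As alternatives, the fits were repeated with arrays left out, with sex, the array code or the levels of *Ms4a1* or *Gata4* as covariates, with weighted arrays, without moderation, over both tissues together, with other scaling, and with more or fewer clusters.

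The members, the 14 other lists and the alternatives were chosen with earlier results of these data known. Levels on each array are given for the 8 members highest in the ileum, the 8 with the smallest ileum p and the position genes, and each wider list is given by counts and its 2 largest ileum changes. Genes outside this rule were named after their values were seen.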

Additional observations from a re-analysis of the deposited data

Results flagged for a closer look

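The genotype effect of *Csf1r* differed between tissues: ileum minus hippocampus, it was 3.92 ± 0.36 SE on the log2 scale (limma adjusted p = 0.000758), with FIRE -/- below FIRE +/+ on all arrays of the hippocampus and overlapping it in the ileum. That of *Slc2a5* differed by 3.44 ± 0.37 (limma adjusted p = 0.00273): 0.91 ± 0.32 in the ileum and -2.53 ± 0.11 in the hippocampus. None of the 37 enterocyte genes passed this test of the difference between tissues, and groups of 3 arrays were not tested for outlying arrays.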

How the results depend on the processing

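No paired analysis was possible because array numbers follow accession order only and the labels pair no arrays.

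No member was called for genotype in the ileum, the hippocampus or between them under any alternative run, and ileum counts of calls stayed at 0. In the ileum the members above 0 numbered 26 to 33 and their median ran from 0.04 (*Gata4* level as a covariate) to 0.27 (without C09). Values that changed sign follow, and the cause was not tested. With labelled sex as a covariate *Mep1a* was -0.031 and *Tmprss15* 0.015, and with array weights *Mep1a* was -0.56. With the *Gata4* covariate, *Fabp2* was -0.0036, *Apob* -0.051, *Mep1b* -0.035, *Lct* -0.026, *Sis* -0.16, *Cubn* -0.17 and *Amn* -0.069. Without D09 and F09, *Fabp2* was -0.032, *Dgat2* -0.058, *Dpp4* -0.015, *Mep1a* -0.082, *Mep1b* -0.091, *Tmprss15* 0.0010, *Sis* -0.10, *Cubn* -0.051 and *Amn* -0.047.

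With each array left out in turn, the ileum values that changed sign ran over these ranges: *Scarb1* -0.063 to 0.46, *Anpep* -0.046 to 0.024, *Mep1a* -1.25 to 1.32, *Tmprss15* -0.12 to 0.025, *Cdhr5* -0.018 to 0.033, *Dgat2* -0.057 to 0.43, *Cd36* -0.031 to 0.49, *Mep1b* -0.033 to 0.16, *Sis* -0.070 to 0.13, *Slc7a9* -0.0085 to 0.070, *Cubn* -0.043 to 0.25 and *Slc34a2* -0.012 to 0.14. In the comparison between tissues, *Tmprss15* ran over -0.057 to 0.092 in FIRE -/- mice and *Lct* ran over -0.14 to 2.08 in FIRE +/+ mice. With a second quantile normalization the difference between tissues for *Tmprss15* in FIRE -/- mice was -0.088.

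In the hippocampus the clusters called lower numbered 24 by the unmoderated test, 41 in a fit of both tissues and 62 with the array code number as a block. Those called higher numbered 1 by the unmoderated test, with all clusters or with labelled sex, 3 with the code block, and 0 to 4 with 1 array left out. Members above 0 there numbered 8 of the 13 left by a filter on dim clusters, and 17 (without H07) to 28 with 1 array left out. Between tissues, the clusters called numbered 8 by the unmoderated test, 34 with array weights, 62 higher and 3 lower without D09 and F09, and 12 (without B09 or E07) to 41 (without D09) with 1 array left out.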
